A study of Mus musculus with 12 samples.

Results

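Major histocompatibility complex (MHC) class II genes and their regulators were followed in 4T1, a triple-negative mammary tumour line derived from the BALB/c strain. The genes were chosen by symbol, and the rule used no measured value: H2-Aa, H2-Ab1, H2-Eb1, H2-DMa, H2-DMb1, Cd74, Ciita and Rfx5. Of these 8 genes, 7 were analysed, among 16283 genes in the count table, and all 7 passed the filter on low counts that left 13601 genes for testing. H2-DMb1 was not analysed here. RNA was sequenced from 3 lines: a control carrying a guide against the Rosa26 locus, and 2 lines carrying a guide against Cebpd, sgRNA1 or sgRNA2. Cebpd encodes C/EBPδ, a transcription factor of inflammatory genes, and the series asks how cells with and without it respond to interferon gamma (IFN-gamma). Each line was given vehicle or IFN-gamma at 20 ng/ml for 24 hours, which makes 6 groups of 2 libraries. All lines shared the BALB/c background, and the labels do not say whether a line was 1 clone or a pool of edited cells.

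MHC class II molecules display peptides from endosomes to CD4+ T cells. H2-Aa and H2-Ab1 encode the alpha and beta chains of I-A, and H2-Eb1 the beta chain of I-E. Cd74 encodes the invariant chain, which occupies the peptide groove until the H2-DM heterodimer helps to exchange its remnant for peptide. Professional antigen-presenting cells make class II constitutively, whereas most other cells make it only when IFN-gamma induces CIITA, in part through IRF1. CIITA does not bind DNA itself: it docks on a complex at the X and Y boxes of class II promoters that includes RFX5 with its partners RFXAP and RFXANK, CREB, and NF-Y.

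Total counts per library lay between 16912710 and 24784371, so that 3 counts correspond to 0.118 to 0.181 CPM. Levels are given as CPM (read counts relative to the scaled size of each library), as mean ± SD of 2 libraries, and differences as log2 fold changes ± SE. A gene was called changed at an adjusted p below 0.05 in edgeR's quasi-likelihood test over all 13601 genes. Whether paired libraries of a group represent separate cultures is not stated, so the p-values reflect only the spread between these libraries, which may be technical. Many genes differed between all groups, and each count of class II genes is therefore read against the share of all tested genes called in the same direction. Cebpd itself had 136 to 176 counts in the control vehicle libraries and 150 to 271 in those of the guide lines, and 956 to 1106 against 563 to 980 with IFN-gamma; small edits need not lower the transcript, so this is no check of the labels. The 10 epithelial markers examined summed to 3512 to 4664 CPM in every library, but single markers changed. With sgRNA1 and sgRNA2 in vehicle 6 and 7 of the 10 were called higher, where 25.6% and 38.3% of all tested genes were. Lower were 2 and 3, where 26.9% and 35% of all tested genes were. With IFN-gamma 4 were higher and 6 lower with each guide. There 31.6% and 30.2% of all tested genes were higher and 33.3% and 31.6% lower.

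The I-A and I-E chain genes lie close together on chromosome 17 (GRCm38), H2-Ab1 at chr17:34257689-34269419 on the plus strand, H2-Aa at chr17:34282744-34287823 on the minus strand and H2-Eb1 at chr17:34305867-34316674 on the plus strand. H2-DMa lies nearby at chr17:34119541-34139101. The promoters of the genes below are shown because 2 of them, H2-Aa and H2-Eb1, gave no count in control cells without IFN-gamma, whereas H2-DMa and Rfx5 were already transcribed there. Each runs from 250 bases before to 50 bases after the start site, from RefSeq on GRCm38.p6. Capitals mark the CCAAT sequence of the Y box, read as ATTGG or CCAAT, and, where it stands 20 to 30 bases before ATTGG, the GNAACT core taken here for the RFX site of the X box.
H2-Aa, chr17:34287774-34288073, minus strand: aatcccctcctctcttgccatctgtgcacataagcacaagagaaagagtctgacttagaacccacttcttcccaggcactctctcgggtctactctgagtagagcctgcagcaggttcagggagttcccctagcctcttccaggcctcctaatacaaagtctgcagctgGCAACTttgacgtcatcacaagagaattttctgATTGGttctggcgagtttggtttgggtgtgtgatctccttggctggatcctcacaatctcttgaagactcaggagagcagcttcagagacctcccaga
H2-Eb1, chr17:34305617-34305916, plus strand: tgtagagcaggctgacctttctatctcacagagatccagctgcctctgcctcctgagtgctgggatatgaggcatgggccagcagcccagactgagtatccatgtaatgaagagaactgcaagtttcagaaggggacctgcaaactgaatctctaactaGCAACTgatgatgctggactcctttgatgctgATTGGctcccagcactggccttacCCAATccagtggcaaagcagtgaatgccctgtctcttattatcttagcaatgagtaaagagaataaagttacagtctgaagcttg
H2-DMa, chr17:34122582-34122881, plus strand: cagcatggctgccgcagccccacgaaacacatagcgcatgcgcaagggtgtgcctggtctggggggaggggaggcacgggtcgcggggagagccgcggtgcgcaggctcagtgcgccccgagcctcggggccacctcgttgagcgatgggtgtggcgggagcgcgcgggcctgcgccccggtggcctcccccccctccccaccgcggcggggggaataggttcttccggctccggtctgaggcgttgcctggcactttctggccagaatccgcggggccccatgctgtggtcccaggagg
Rfx5, chr3:94953858-94954157, plus strand: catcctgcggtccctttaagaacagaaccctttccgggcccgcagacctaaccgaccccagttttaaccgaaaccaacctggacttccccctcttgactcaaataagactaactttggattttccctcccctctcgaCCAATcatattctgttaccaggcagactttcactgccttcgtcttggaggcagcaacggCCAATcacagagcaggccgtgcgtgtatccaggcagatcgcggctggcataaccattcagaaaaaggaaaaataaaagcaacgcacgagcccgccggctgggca

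The GNAACT core was followed by ATTGG in both chain promoters, with 27 bases between them in H2-Aa and 26 in H2-Eb1. It began 81 bases before the start site in H2-Aa and 91 bases before it in H2-Eb1. In H2-Aa the letters TGACGTCA, a CREB-type site, followed the core at 74 bases before the start. The core and ATTGG, though not TGACGTCA, also stood in the promoter of H2-DMb1, 27 bases apart. Searched on both strands, GNAACT followed by ATTGG at this distance occurred in 184 of 32851 promoters of the same length (0.56%), and ATTGG alone in 37.4%. These letters were chosen with the class II sequences in view, so the shares are a description. The first H2-DMa start, the one printed, had neither pattern and 29 CpG dinucleotides. A second H2-DMa start, with its window at chr17:34125268-34125567, had 0 CpG and 1 ATTGG, at -198, without the GNAACT core before it. Which H2-DMa start these cells used was not tested. The annotated gene begins at 34119541, before both windows, so neither window need hold the promoter in use. Rfx5 had 2 CCAAT sequences and 16 CpG, whereas H2-Aa had 3 CpG and H2-Eb1 had 0. The median over all promoters was 7. No promoter of the 4 held TTGCNNAA, a C/EBP-type site, which occurred in 10.8% of all promoters; a match or its absence in this window says nothing of binding.

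Control cells without IFN-gamma had almost no class II chain RNA. H2-Aa, H2-Ab1 and H2-Eb1 each had 0 counts in both control vehicle libraries, which allows up to 3 counts in each, or about 0.156 CPM. Cd74 had 10 and 14 counts in the 2 libraries, and Ciita had 4 and 0. Both were therefore near the limit of detection. H2-DMa had 50 and 42 counts, or 2.39 ± 0.27 CPM. Rfx5, which acts on the class II promoters but is made in many cell types, had 250 and 247 counts, or 12.9 ± 0.026 CPM.

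IFN-gamma raised all 7 genes in control cells, where 36.4% of all tested genes were called higher. H2-Aa, H2-Eb1 and Ciita had 0 to 8 counts in every vehicle library and passed the filter on low counts only through treated libraries. A rise of these genes was thus favoured by the filter, here and in the guide lines, and the count of 7 is a description. Ciita, the co-activator on which class II transcription depends, went from 4 counts in the 2 vehicle libraries to 894 and 842, reaching 43.3 ± 0.038 CPM. Its ratio was 416 (exact 95% counting interval 162 to 1527, which covers counting error only). It was 209 (81.6 to 769) without the second vehicle library, and at least 275-fold without the first, which left 0 counts. The chain genes came up together: H2-Aa reached 180 and 182 counts, H2-Ab1 187 and 201, and H2-Eb1 156 and 152. Against the limit set by 3 counts per library, these were at least 57.8-fold higher for H2-Aa, at least 62-fold for H2-Ab1 and at least 49.2-fold for H2-Eb1. Cd74 reached 2952 and 2626 counts (log2 fold change 7.78 ± 0.11, adjusted p = 8.95e-20, edgeR). H2-DMa rose by 2.91 ± 0.18 (adjusted p = 4.44e-11) and Rfx5 by 1.74 ± 0.09 (adjusted p = 3.14e-12), the smaller rises of the group. In every gene, both treated libraries lay above both vehicle libraries.

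**Figure D1:**
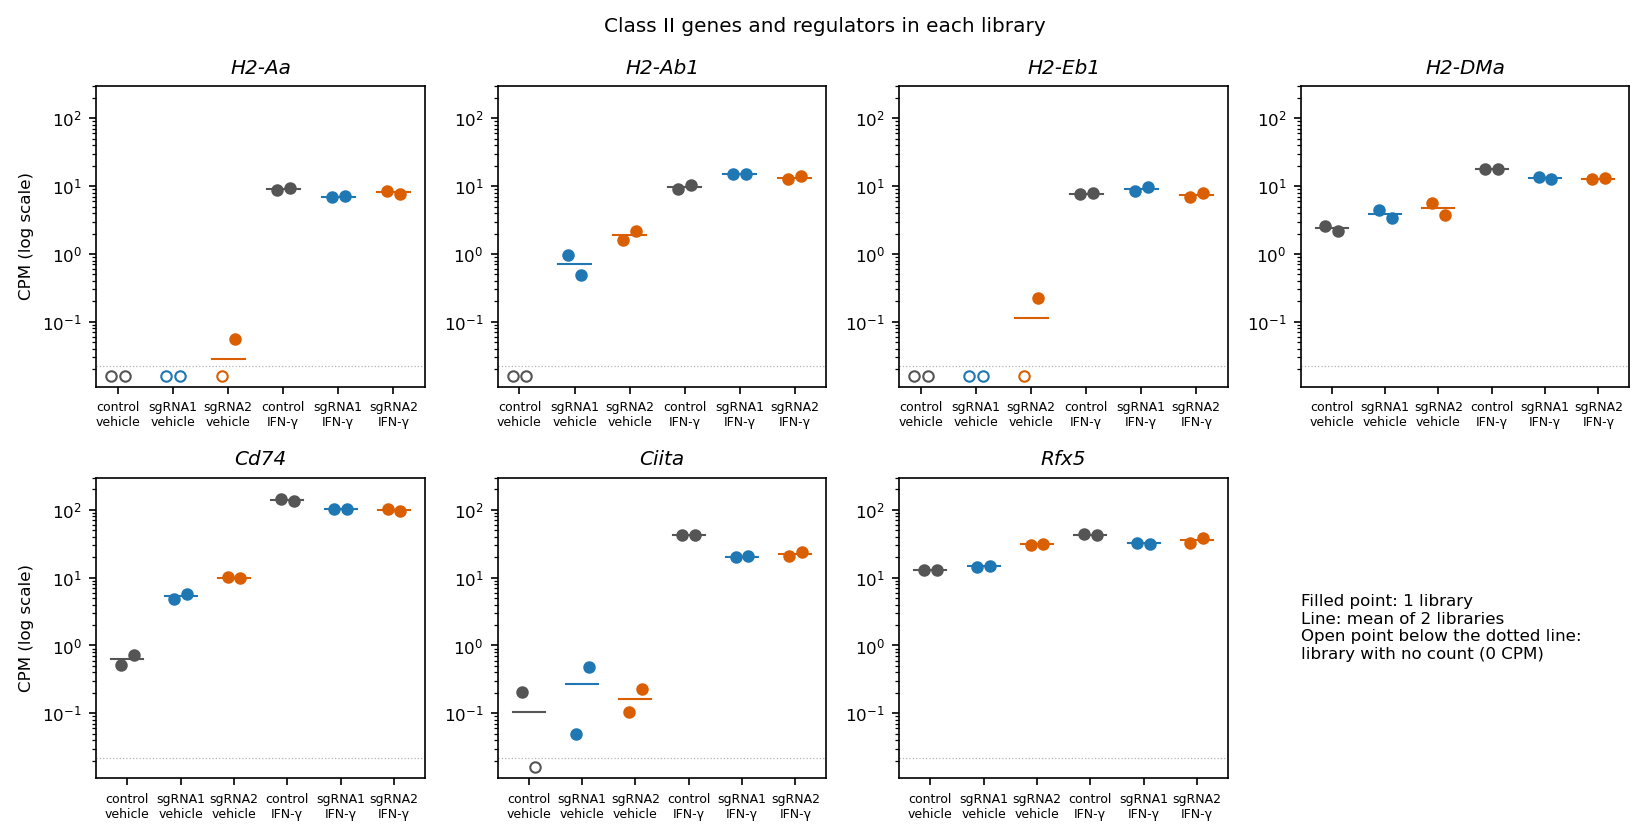
CPM on a log axis for the 7 genes, with 1 point per library, a line for the mean of the 2 libraries and open points for libraries at 0. H2-Aa, H2-Ab1 and H2-Eb1 sit at 0 in control vehicle cells, H2-Ab1 and Cd74 have counts in the vehicle libraries of both Cebpd guide lines, and Ciita with IFN-gamma is at 43.3 CPM in control cells and 20.4 and 22.5 CPM with the guides.

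Per kilobase of merged exon, the order of the levels in IFN-gamma-treated control cells was Cd74 (82.7 CPM per kb), Rfx5 (7.87), H2-DMa (5.25), Ciita (4.54), H2-Eb1 (3.95), H2-Ab1 (3.77) and H2-Aa (2.38). The invariant chain transcript thus stood far above all the others. H2-Eb1 and H2-Ab1 overlapped, with 3.88 and 4.02 CPM per kb in the 2 libraries of H2-Eb1 and 3.52 and 4.02 in those of H2-Ab1, and every other pair of neighbours was separated by library. The order depends on the merged lengths, 3.798 kb for H2-Aa, 2.568 for H2-Ab1, 1.944 for H2-Eb1 and 9.535 for Ciita. Before division by length, H2-Aa was at 9.03 CPM, H2-Ab1 at 9.69 and H2-Eb1 at 7.68. Class II chains are polymorphic, the BALB/c alleles are not those of the C57BL/6 genome used as reference, and H2 genes have close relatives, so their counts and this order are uncertain to that extent. Part of some exons is shared with another gene on the opposite strand, 26.8% for Rfx5 (with the antisense gene B230398E01Rik), 10.4% for H2-DMa (with Brd2) and 3.45% for Ciita (with Dexi). The strand setting of the counting is not given, so these counts may include reads of the other gene.

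With sgRNA1, IFN-gamma raised all 7 genes, where 31.7% of all tested genes were called higher. Cd74 rose by 4.29 ± 0.08 on the log2 scale, H2-Ab1 by 4.36 ± 0.23, H2-DMa by 1.75 ± 0.17 and Rfx5 by 1.12 ± 0.09. H2-Aa was at least 42.4-fold higher and H2-Eb1 at least 55-fold, while Ciita had a ratio of 82.5 (interval 43.2 to 181), which was 42.2 without the first vehicle library and 405 (72.5 to 16007) without the second. With sgRNA2, all 7 were again called higher, where 30.5% of all genes were. Cd74 rose by 3.33 ± 0.07, H2-Ab1 by 2.83 ± 0.19 and H2-DMa by 1.43 ± 0.16. Ciita had a ratio of 140.3 (64.3 to 383), H2-Eb1 of 68.8 (26.6 to 254) and H2-Aa of 295 (52.7 to 11703), the last against 1 count. Leaving out vehicle libraries moved these: without the first, the ratio was 101 for Ciita, 32.9 for H2-Eb1 and 141 for H2-Aa, and without the second it was 220.0 for Ciita, at least 47.4-fold for H2-Eb1 and at least 52-fold for H2-Aa. Rfx5 rose by only 0.21 ± 0.08 with sgRNA2 (adjusted p = 0.0285). That call was lost with upper quartile scaling (0.09, adjusted p = 0.346), with DESeq2 (adjusted p = 0.0801), in a fit to the groups compared alone (adjusted p = 0.0793) and without the second treated library (0.08, adjusted p = 0.498).

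Without IFN-gamma, some class II genes were higher in the cells with Cebpd guides. With sgRNA1, 3 of 7 rose (H2-Ab1, Cd74 and H2-DMa), where 25.6% of all tested genes did, and with sgRNA2 5 of 7 (H2-Ab1, Cd74, H2-DMa, Rfx5 and H2-Eb1), where 38.3% did. By edgeR no class II gene was called lower with either guide, where 26.9% and 35% of all tested genes were, and every gene with an unadjusted p below 0.05 was among those called higher, 3 with sgRNA1 and 5 with sgRNA2; DESeq2 called 3 and 4. The 2 comparisons share the control libraries. Fewer cells of a type and less RNA per cell cannot be told apart in these bulk samples.

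Cd74 had 96 and 95 counts with sgRNA1 and 194 and 173 with sgRNA2, against 10 and 14 in control. Its level was 0.625 ± 0.15 CPM in control, 5.28 ± 0.64 with sgRNA1 and 9.94 ± 0.17 with sgRNA2, with no overlap between lines. The differences from control were 3.06 ± 0.21 (adjusted p = 2.98e-09) and 3.98 ± 0.18 (adjusted p = 1.31e-12). H2-Ab1, the I-A beta chain, had 19 and 8 counts with sgRNA1 and 31 and 38 with sgRNA2, against 0 and 0 in control. It was at least 4.61-fold higher with sgRNA1 (adjusted p = 2.62e-05) and at least 12.1-fold higher with sgRNA2 (adjusted p = 5.7e-08). The partner chain did not accompany it: H2-Aa had 0 and 0 counts with sgRNA1 and 0 and 1 with sgRNA2. H2-Eb1 had 0 and 0 with sgRNA1 and 0 and 4 with sgRNA2. Its call with sgRNA2 (adjusted p = 0.0476) rests on those 4 counts in 1 library. It was lost on leaving out any of 8 of the 12 libraries, that one among them, and with DESeq2 (adjusted p = 0.0546).

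H2-DMa, the alpha chain of the peptide exchange factor, had 87 and 57 counts with sgRNA1 and 109 and 67 with sgRNA2, above 50 and 42 in control. It rose by 0.72 ± 0.21 with sgRNA1 (adjusted p = 0.00802) and by 0.99 ± 0.20 with sgRNA2 (adjusted p = 0.000288). The sgRNA1 call was lost without the second control vehicle library (0.61, adjusted p = 0.0699) and without the first sgRNA1 vehicle library (0.52, adjusted p = 0.117). Rfx5 had 286 and 250 counts with sgRNA1, a difference of 0.19 ± 0.10 that was not called (adjusted p = 0.125) except with upper quartile scaling (0.29, adjusted p = 0.0206). With sgRNA2 it had 590 and 550 counts and rose by 1.26 ± 0.09 (adjusted p = 5.34e-10). Ciita stayed between 0 and 8 counts in every vehicle library. Control libraries had 4 and 0 counts, sgRNA1 libraries 1 and 8 and sgRNA2 libraries 2 and 4, too few to show a difference at this depth; the ratio with sgRNA1 was 2.37 (interval 0.662 to 10.5). Ciita was not called with sgRNA1 (adjusted p = 0.304) except without the first control vehicle library or without the first sgRNA1 vehicle library (adjusted p = 0.0465 in each).

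The 2 guide lines differed from each other in vehicle. In sgRNA2 against sgRNA1, 3 of 7 genes were higher, where 33.2% of all tested genes were. Cd74 was higher by 0.92 ± 0.12 (adjusted p = 1.96e-06), H2-Ab1 by 1.33 ± 0.31 (adjusted p = 0.00123) and Rfx5 by 1.07 ± 0.09 (adjusted p = 9.14e-09). H2-DMa differed by 0.27 ± 0.19 (adjusted p = 0.226), and was called only without the second sgRNA2 vehicle library (0.49, adjusted p = 0.0401), and H2-Eb1 only without the first (adjusted p = 0.0081). Taking the mean of both guides against control, 4 of 7 rose, where 34% of all tested genes did: Cd74, H2-Ab1, H2-DMa and Rfx5. With both guides put into 1 group of 4 libraries, Rfx5 was no longer called (0.82, adjusted p = 0.0584).

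Markers of professional antigen-presenting cells, the usual source of class II RNA, were examined beside these values. Of 20 such markers, 5 were analysed (Ptprc, Itgam, Csf1r, Cd68 and Zbtb46) and 3 passed the filter on low counts. In vehicle 2 of the 3 were called higher with sgRNA1 (Csf1r and Zbtb46) and all 3 with sgRNA2, where 25.6% and 38.3% of all tested genes were. The 5 together summed to 6.46 and 7.65 CPM in control vehicle cells, 11.3 and 10.2 with sgRNA1 and 38.1 and 40.1 with sgRNA2. Ptprc, which marks all leukocytes, had 6 and 7 counts in control, 3 and 3 in sgRNA1 cells and 4 and 10 in sgRNA2 cells, and Itgam had 0 to 3 counts in every library. The sums rested mainly on Cd68, Csf1r and Zbtb46. Cd68, a macrophage lysosomal protein, was at 4.43, 4.76 and 25.4 CPM in the 3 lines, Csf1r at 0.754, 2.86 and 8.27, and Zbtb46 at 1.53, 2.92 and 4.93. With IFN-gamma the sums were 38 and 37.6 CPM in control, 18.3 and 19.7 in sgRNA1 cells and 37.2 and 37.2 in sgRNA2 cells. Of 12 markers of lymphocytes, endothelium and fibroblasts, 5 were analysed, which in vehicle summed to 16.2 and 14.7 CPM in control, 21.4 and 19.9 in sgRNA1 cells and 32.7 and 33.1 in sgRNA2 cells. Of the 3 tested, 2 were called higher with each guide, where 25.6% and 38.3% of all tested genes were. Both were fibroblast genes, Col1a1 at 0.183, 1.21 and 3.93 CPM in the 3 lines and Pdgfra at 14.4, 18.5 and 28.2. Col1a1 had 2 and 5 counts in control vehicle cells, 24 and 20 with sgRNA1 and 75 and 70 with sgRNA2. It passed the filter on low counts only through guide libraries, which favoured a rise, so this count of called genes is a description. Whether other cells contributed to the class II values was not tested.

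Set against each line's own level with IFN-gamma, the vehicle levels differed by gene. Cd74 in vehicle stood at 0.45% of its IFN-gamma level in control, 5.14% with sgRNA1 and 9.92% with sgRNA2. H2-Ab1 was at 0, 4.71 and 14.1%, and H2-Aa at 0, 0 and 0.351%. Rfx5 spanned the widest range in percentage points, 29.9% in control, 46.1% with sgRNA1 and 86.9% with sgRNA2, and H2-DMa went from 13.2% to 29.6% and 36.9%. Ciita was at 0.239, 1.31 and 0.734%, with the 2 sgRNA1 libraries far apart at 0.247 and 2.37%.

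**Figure D2:**
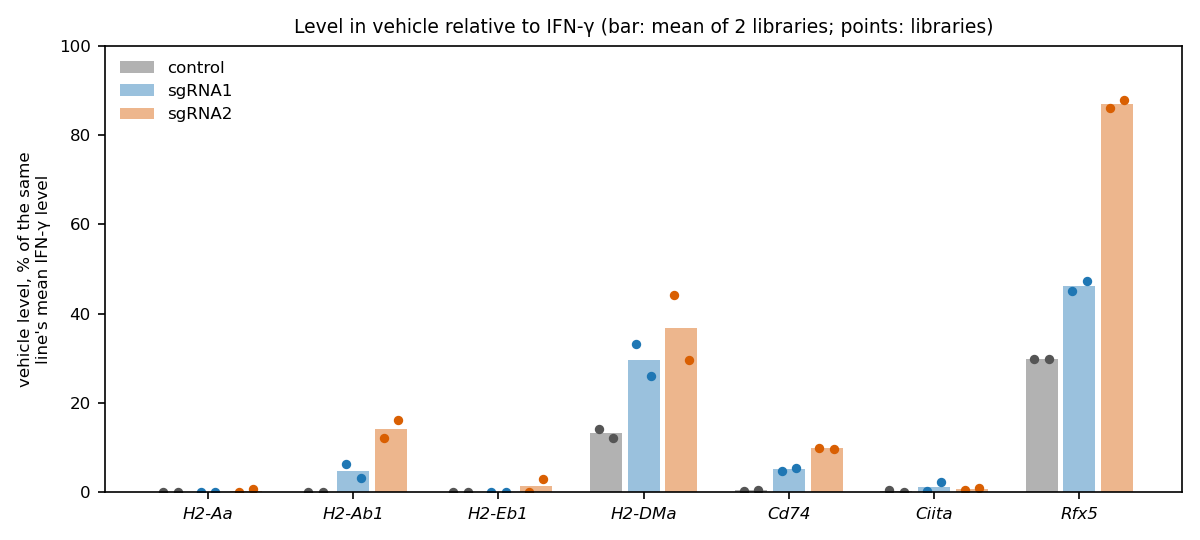
Vehicle level as a percentage of the same line's mean IFN-gamma level, with bars for the mean of 2 libraries and points for libraries. H2-Ab1, Cd74, H2-DMa and Rfx5 stand higher in both Cebpd guide lines than in control, and the Ciita bars stay at or below 1.31%, with 1 sgRNA1 library at 2.37%.

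With IFN-gamma, the guide lines had less Ciita and Cd74 but more H2-Ab1 than control. In each of the comparisons, 4 of 7 genes fell (Ciita, Cd74, H2-DMa and Rfx5) and 1 rose (H2-Ab1). With sgRNA1, 33.3% of all tested genes were called lower and 31.6% higher, and with sgRNA2, 31.6% and 30.2%. The median log2 fold change of the 7 genes was -0.43 with sgRNA1, against -0.00155 over all genes, and -0.28 with sgRNA2, against 0.0278. Both comparisons share the 2 treated control libraries.

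Ciita had 424 and 421 counts with sgRNA1 and 387 and 619 with sgRNA2, against 894 and 842 in control. Scaled, these were 43.2 and 43.3 CPM in control, 19.9 and 20.9 in sgRNA1 cells and 20.8 and 24.3 in sgRNA2 cells, so that every guide library lay below every control library. The log2 fold change was -1.08 ± 0.15 with sgRNA1 (adjusted p = 4.04e-06) and -0.94 ± 0.15 with sgRNA2 (adjusted p = 2.19e-05). Cd74 was at 143 and 135 CPM in control, 103 and 103 in sgRNA1 cells and 104 and 96.4 in sgRNA2 cells. Its log2 fold change was -0.43 ± 0.05 (adjusted p = 1.13e-06) with sgRNA1 and -0.47 ± 0.05 (adjusted p = 4.16e-07) with sgRNA2. The invariant chain therefore fell by less than Ciita in both lines, as the fitted values stand; the difference between the 2 genes was not tested.

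H2-Ab1 moved the other way. It was at 9.04 and 10.3 CPM in control, 15.3 and 15.3 in sgRNA1 cells and 12.6 and 14 in sgRNA2 cells, with no overlap between control and guide libraries. It rose by 0.66 ± 0.15 with sgRNA1 (adjusted p = 0.00106) and by 0.46 ± 0.15 with sgRNA2 (adjusted p = 0.014). The sgRNA2 call was lost without the first treated control library (0.37, adjusted p = 0.118), without the second treated sgRNA2 library (0.38, adjusted p = 0.0944) and with DESeq2 (adjusted p = 0.0615).

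H2-Aa was at 8.7 and 9.36 CPM in control, 6.98 and 7.11 in sgRNA1 cells and 8.59 and 7.57 in sgRNA2 cells. Its log2 fold change was -0.36 ± 0.17 with sgRNA1 (adjusted p = 0.0793; 0.0442 in a fit to the groups compared alone) and -0.16 ± 0.17 with sgRNA2 (adjusted p = 0.422). H2-Eb1 was at 7.54 and 7.81 CPM in control, 8.62 and 9.64 in sgRNA1 cells and 6.82 and 7.93 in sgRNA2 cells. The differences were 0.25 ± 0.20 (adjusted p = 0.296) and -0.05 ± 0.20 (adjusted p = 0.841), so neither line's change in the I-E beta chain was called.

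H2-DMa was at 18 and 18.2 CPM in control, 13.7 and 12.8 in sgRNA1 cells and 12.7 and 13 in sgRNA2 cells. It fell with sgRNA1 (-0.45 ± 0.14, adjusted p = 0.00857) and with sgRNA2 (-0.50 ± 0.14, adjusted p = 0.00471). The sgRNA1 call was lost without the second treated sgRNA1 library (-0.41, adjusted p = 0.0659). Rfx5 was at 43.4 and 43.1 CPM in control, 32.6 and 31.4 in sgRNA1 cells and 32.4 and 38.7 in sgRNA2 cells. It fell with sgRNA1 (-0.44 ± 0.08, adjusted p = 6.98e-05) and with sgRNA2 (-0.28 ± 0.08, adjusted p = 0.0041), the latter call lost with upper quartile scaling (-0.17, adjusted p = 0.0622) and without the first treated sgRNA2 library (-0.12, adjusted p = 0.191).

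**Figure D3:**
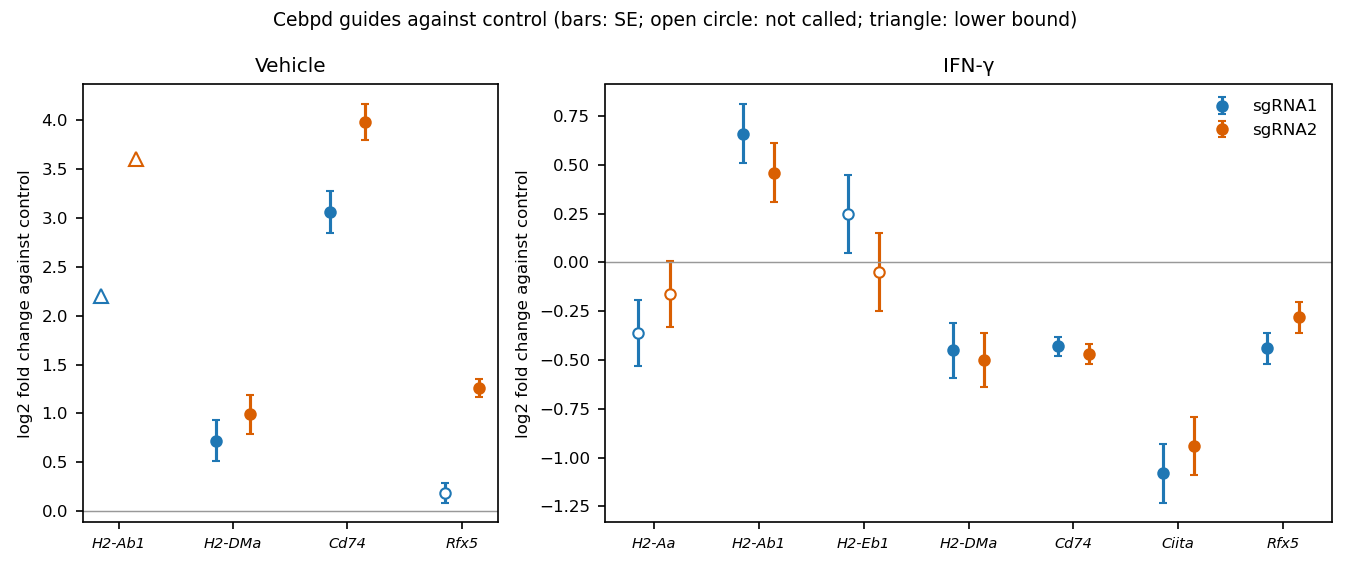
Log2 fold change of each guide line against control, in vehicle (left) and with IFN-gamma (right), with SE as bars, open circles where not called and open triangles for lower bounds. In vehicle the genes shown lie above 0, and with IFN-gamma Ciita, Cd74, H2-DMa and Rfx5 lie below 0 and H2-Ab1 above it for both guides.

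Between the 2 guide lines with IFN-gamma, 0 of 7 genes were called by edgeR, where 47.9% of all tested genes were. None had an unadjusted p below 0.05 either, and DESeq2 called 0. Rfx5 came nearest, with 0.16 ± 0.08 (adjusted p = 0.0981); it was called with upper quartile scaling (0.20, adjusted p = 0.0477) and without the first treated sgRNA2 library (0.27, adjusted p = 0.00977). For the mean of the guides against control with IFN-gamma, 5 of 7 genes were called, 1 higher and 4 lower, where 32.5% and 33.4% of all tested genes were. Both guides were also treated as 1 group of 4 libraries per treatment. The spread of a gene then includes the differences between guides in vehicle as well as with IFN-gamma. This fit left 1 of 7, Ciita, and called 32.1% of all tested genes in either direction and 17.6% lower. Cd74 (adjusted p = 0.145), H2-Ab1 (0.251), H2-DMa (0.055) and Rfx5 (0.361) were then not called.

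The balance of the I-A chains differed between groups. H2-Ab1 made up 51 and 52.5% of the H2-Ab1 and H2-Aa counts in treated control cells. Its share was 68.6 and 68.2% with sgRNA1 and IFN-gamma, and 59.5 and 64.9% with sgRNA2 and IFN-gamma. In the 4 vehicle libraries of the guide lines it was 100, 100, 100 and 97.4%, from 8 to 39 counts each, with exact 95% binomial lower limits of 82.4, 63.1, 88.8 and 86.5%. Each guide line thus had a higher share in both vehicle libraries than in both treated ones. This ratio was chosen after its values were seen and was not tested. Relative to Ciita in the same treated library, H2-Ab1 stood at 0.209 and 0.239 CPM per CPM in control, 0.769 and 0.729 in sgRNA1 cells and 0.607 and 0.577 in sgRNA2 cells. For H2-Aa the control ratios were 0.201 and 0.216, those of sgRNA1 0.351 and 0.34 and those of sgRNA2 0.413 and 0.312, and Cd74 stood at 3.3 and 3.12, 5.17 and 4.92, and 5 and 3.97. All 3 ratios were higher in every guide library than in both control libraries. Ciita, the divisor, was itself lower in the guide lines, so any gene that fell by less gives a higher ratio. Of the 3 genes, only H2-Ab1 had a higher mean CPM in the treated guide lines than in treated control cells.

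**Figure D4:**
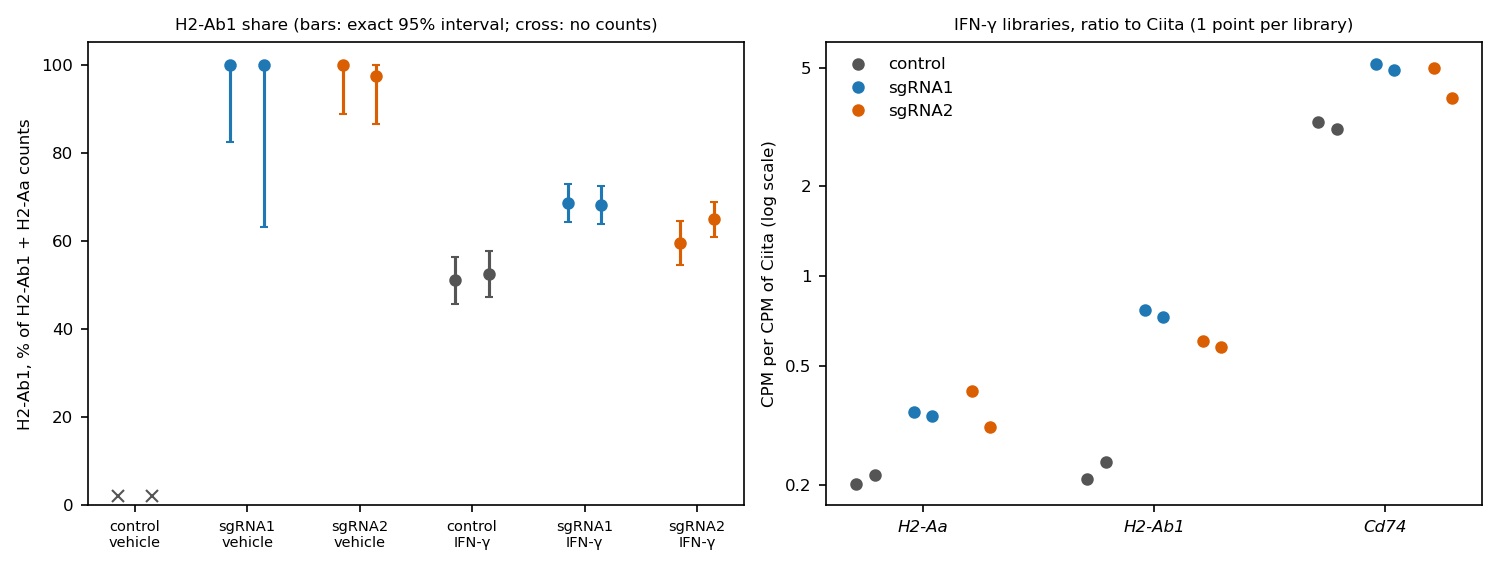
Left, H2-Ab1 as a percentage of H2-Ab1 plus H2-Aa counts in each library, with exact 95% intervals and crosses where both genes had 0 counts. Right, CPM of H2-Aa, H2-Ab1 and Cd74 per CPM of Ciita in each IFN-gamma library (log axis). Control libraries lie lowest for each gene, and Ciita, the divisor, is itself highest in them.

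The rise with IFN-gamma was smaller in the guide lines than in control for several genes, tested as an interaction. With sgRNA1, 4 of 7 had a lower response (Cd74, H2-Ab1, H2-DMa and Rfx5), where 28.2% of all tested genes did, and with sgRNA2 4 of 7 (Cd74, H2-Ab1, H2-DMa and Rfx5), where 34.7% did. The response of Cd74 was lower by 3.49 on the log2 scale with sgRNA1 and by 4.45 with sgRNA2. For H2-DMa it was lower by 1.17 and 1.48, and for Rfx5 by 0.62 and 1.53. For Cd74 most of this difference lay in vehicle, where it was 3.06 and 3.98 higher with the guides, and the smaller part with IFN-gamma (-0.43 and -0.47). For Ciita the interaction was not called (adjusted p = 0.0526 with sgRNA1 and 0.218 with sgRNA2), and its vehicle counts allow no fold. It was called without the first control vehicle library with both guides, and for sgRNA1 with DESeq2 (adjusted p = 0.0194), upper quartile scaling (0.0498), a fit to the groups compared alone (0.0435), and without the first sgRNA1 vehicle library (0.00482) or the second treated sgRNA2 library (0.0473). Between the guides, 3 of 7 responses were lower with sgRNA2 (Cd74, H2-Ab1 and Rfx5), where 21.9% of all genes were. For the mean of the guides against control 4 of 7 were lower, where 33.4% of all genes were; Rfx5 was not called there with 1 joint guide group (adjusted p = 0.0611).

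Of 10 genes that carry the IFN-gamma signal to Ciita or restrain it, 9 rose with IFN-gamma in control cells, where 36.4% of all tested genes did, with a median log2 fold change of 1.64 against 0.0109 over all genes. Irf1, which acts on the Ciita promoter, rose by 4.98 ± 0.06, Irf8, a related factor, by 4.52 ± 0.06, and Socs1, a feedback inhibitor of the kinases, by 2.98 ± 0.09. With IFN-gamma, 7 of the 10 were lower with sgRNA1, and 7 were lower and 1 higher with sgRNA2 (33.3% and 31.6% of all tested genes were lower), with medians of -0.66 and -0.48. Jak2, a kinase of the receptor, fell with sgRNA1 and sgRNA2 (-1.04 ± 0.05 and -0.90 ± 0.05), and so did Irf1 (-0.62 ± 0.05 and -0.31 ± 0.05). These falls stood beside those of Ciita; a dependence of one on the other was not tested.

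In vehicle, 4 of the 10 were higher and 1 lower with sgRNA1, where 25.6% and 26.9% of all tested genes were, and 7 higher and 2 lower with sgRNA2, where 38.3% and 35% were. Irf1 had 437 and 507 counts in control, 969 and 823 in sgRNA1 cells and 2425 and 2236 in sgRNA2 cells. It rose by 1.00 ± 0.06 and 2.36 ± 0.06. Ifngr1, the ligand-binding receptor chain, rose by 0.59 ± 0.06 and 1.07 ± 0.06, and Socs1 fell (-0.66 ± 0.12 and -2.09 ± 0.15). The largest rise with sgRNA2 was that of Prdm1 (3.72 ± 0.54, adjusted p = 6.49e-06, edgeR), with 88 and 67 counts against 6 and 6 in control. With sgRNA1 Prdm1 had 6 and 0 counts and was not called (-0.91 ± 0.91, adjusted p = 0.423, edgeR).

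**Figure D5:**
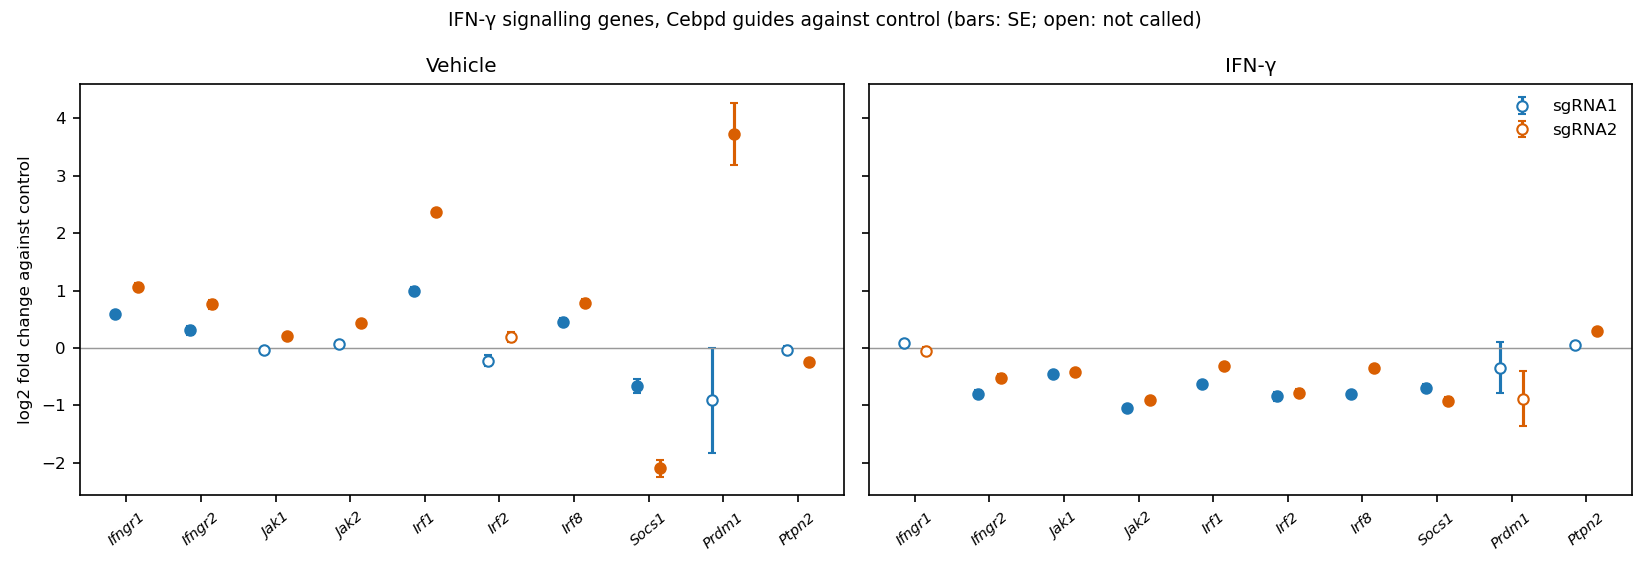
Log2 fold change of the 10 IFN-gamma signalling genes in each guide line against control, in vehicle (left) and with IFN-gamma (right), with SE as bars and open circles where not called. Irf1 lies at 1.00 and 2.36 in vehicle and at -0.62 and -0.31 with IFN-gamma, and Jak2 at -1.04 and -0.90 with IFN-gamma.

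Among 10 other factors of the X and Y box complex and its co-activators, 4 rose and 3 fell with IFN-gamma in control cells (median 0.05), where 36.4% and 34.1% of all tested genes did. For the mean of the guides against control, 2 were higher and 6 lower in vehicle (median -0.30; 34% and 33.7% of all tested genes), and 2 higher and 6 lower with IFN-gamma (median -0.24; 32.5% and 33.4% of all tested genes). The same shares hold for the other lists compared in this way. Nfya, the subunit of NF-Y that contacts the CCAAT sequence, fell in vehicle (-0.65 ± 0.05) and with IFN-gamma (-0.28 ± 0.05), as did Ep300, a histone acetyltransferase (-0.85 ± 0.07 and -0.48 ± 0.07). With IFN-gamma neither was called with sgRNA1 alone (Nfya -0.06 ± 0.06, adjusted p = 0.4, and Ep300 -0.13 ± 0.08, adjusted p = 0.157), against -0.50 ± 0.06 and -0.82 ± 0.08 with sgRNA2. Of the partners of RFX5, Rfxap was not called with either guide in either treatment, and Rfxank rose in vehicle with sgRNA2 (0.90 ± 0.12, adjusted p = 2.94e-06). Of 13 genes of class II peptide processing and trafficking, 11 were tested. In vehicle 7 of them were higher and 3 lower for the mean of the guides (median 0.31), and with IFN-gamma 2 were higher and 5 lower (median -0.07). The guides differed with IFN-gamma. With sgRNA1 2 were higher and 6 lower, where 31.6% and 33.3% of all tested genes were. With sgRNA2 2 were higher and 2 lower, where 30.2% and 31.6% were. Lgmn, a lysosomal protease, rose in vehicle by 0.77 ± 0.04, and Ctsh, a cathepsin, by 0.99 ± 0.04. With IFN-gamma Ctsh was lower with sgRNA1 (-0.16 ± 0.05) and higher with sgRNA2 (0.48 ± 0.04).

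The 11 genes of class I presentation gave a comparison within the same cells. All 11 rose with IFN-gamma in control (median 3.16), where 36.4% of all tested genes did. For the mean of the guides, 10 were higher in vehicle (median 0.81, all but Erap1), where 34% of all tested genes were. With IFN-gamma 9 were lower (median -0.36, all but Psmb10 and Nlrc5), where 33.4% were. By guide, 8 were then lower and 1 (Psmb10) higher with sgRNA1, and 7 lower and 0 higher with sgRNA2. Of all tested genes, 33.3% were lower and 31.6% higher with sgRNA1, and 31.6% and 30.2% with sgRNA2. Psmb8 and Psmb9 fell with sgRNA1 (-0.44 and -0.36). Neither was called with sgRNA2 (-0.07 and 0.09). In vehicle Erap1 was lower with sgRNA2 (-0.43 ± 0.09). Nlrc5, the class I co-activator related to CIITA, was with IFN-gamma at 150.2 CPM in control, 144 with sgRNA1 and 149 with sgRNA2. Nlrc5 in vehicle was higher by 0.56 ± 0.10 with sgRNA1 and 1.18 ± 0.09 with sgRNA2. Psmb9, an immunoproteasome subunit, rose in vehicle by 2.01 ± 0.20 and 3.99 ± 0.15.

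The genes whose levels tracked Cd74 most closely across the 12 libraries, by Pearson correlation of log2(CPM + 0.25) over the 11945 genes whose average reached 1 CPM, were Icam1 (r = 0.9985), Psme1 (0.9934), Psmb8 (0.9934), Nmi (0.9921) and C1s1 (0.9918). Icam1, an adhesion molecule, had 4 and 4 counts in control vehicle cells, 43 and 39 with sgRNA1 and 90 and 91 with sgRNA2, and 69, 47.7 and 58.4 CPM with IFN-gamma. For Ciita they were Il18bp (0.9942), Gm12250 (0.9931), Iigp1 (0.9930), Tlr3 (0.9927) and Apol6 (0.9926). In vehicle, Psmb8 was at 12.8, 39.4 and 87.3 CPM in control, sgRNA1 and sgRNA2 cells, whereas Iigp1 was at 0.0779, 0.146 and 0.16 CPM. These coefficients are a description over libraries that share treatment and line.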

How the data were processed

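RNA from 12 libraries was counted by the authors, who deposited raw counts of reads by gene. Per the submitters' processing notes, STAR 2.4.0, HTSeq, DESeq2 1.10 and mm10 were used; annotation and strand setting: not given in the sources used here. An Illumina TruSeq RNA kit was used on 1 ug of RNA, per the labels' protocols, and groups follow the sample titles. From the counts, edgeR 4.0.16 (R 4.3.3) kept genes by filterByExpr (minimum count 10, minimum total 15), which left 83.5% of genes and 99.965% of counts, scaled libraries by TMM (factors 0.963 to 1.09) and fitted a quasi-likelihood model with 1 term per group to all 12 libraries. In all, 15 comparisons were tested, with Benjamini-Hochberg adjustment over 13601 genes. SEs are derived from each fold change and F statistic. Genes at 0 in an arm were compared with a floor of 3 counts per library, and those with 1 to 10 counts by a ratio with its exact 95% interval. The model's code was tested on simulated data. Replicates differed by more than sampling noise (chi-square per degree of freedom 2.735 to 7.071). The alternatives were RLE and upper quartile scaling, DESeq2 1.42.0, no filter, at least 1 CPM in 2 libraries, the compared groups alone, a replicate block, a joint guide group, and leaving out each library. Gene annotation was GENCODE vM21 on GRCm38, the assembly of mm10. Members and gene lists were chosen with earlier results of these data known. Named genes were all members, up to 4 of the largest called genes of each list, and the 5 nearest to Cd74 and Ciita; other genes were named after their values were seen. Of the signalling genes, 1 was left out and is not reported here.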

Additional observations from a re-analysis of the deposited data

Results flagged for a closer look

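The responses of 4 class II genes to IFN-gamma differed between lines by a test of the difference itself (edgeR interaction, adjusted p below 0.05). With sgRNA1 against control, the response differed by -6.23 on the log2 scale for H2-Ab1, -3.49 for Cd74, -1.17 for H2-DMa and -0.62 for Rfx5. With sgRNA2 against control it differed by -7.75 for H2-Ab1, -4.45 for Cd74, -1.48 for H2-DMa and -1.53 for Rfx5. The H2-Ab1 values against control depend on the prior count of the fit, since control vehicle cells had 0 counts, and are no measure of size. With sgRNA2 against sgRNA1, the response differed by -1.53 for H2-Ab1, -0.96 for Cd74 and -0.91 for Rfx5. H2-Ab1 and Cd74 were higher in the vehicle libraries of both guide lines, while with IFN-gamma H2-Ab1 was higher and Cd74 lower than in control.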

How the results depend on the processing

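With TMM, RLE, either filter, the compared groups alone, DESeq2 and the replicate block, the number of class II genes called stayed within 1.5 times that reported in all 15 comparisons. Between guides with IFN-gamma, upper quartile scaling called 1 gene in place of 0, and leaving out 1 library gave 0 to 1. The joint guide group called 1 gene in place of 5 with IFN-gamma. The cause was not tested. Under this setting 72 further values for the mean of the guides were compared, fold changes of class II and list genes and list counts. Of these, 46 stayed the same, 16 fold changes lost their call and 10 list counts moved by more than 1.5 times. Changes of sign were limited to small differences that were not called: H2-Eb1 in sgRNA2 against control with IFN-gamma (0.05 with upper quartile scaling, -0.17 to 0.08 without 1 library), and, without 1 library, sgRNA2 against sgRNA1 for H2-DMa in vehicle (-0.09 to 0.49), H2-DMa with IFN-gamma (-0.09 to 0.00), Cd74 with IFN-gamma (-0.10 to 0.01) and the H2-DMa interaction (-0.55 to 0.03). The median over all genes shifted under upper quartile scaling by 0.104 and 0.166 in vehicle (sgRNA1 and sgRNA2 against control), 0.135 for their mean, 0.105 for sgRNA2 with IFN-gamma and -0.121 for IFN-gamma in sgRNA2 cells. The share of called genes that were higher then went from 48.8% to 62.8%, 52.3% to 62.5%, 50.2% to 62.1%, 48.9% to 58.2% and 51.1% to 38.1%. Replicate numbers did not pair the samples (correlation of deviations -0.0788 to 0.0642 over 15 pairs of groups), and a replicate block changed no call of a class II gene, with 7 called in control cells given IFN-gamma as without it. Depth limits the vehicle values of H2-Aa, H2-Eb1 and Ciita, which rest on 0 to 8 counts per library.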

Other observations

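Genes for T cell costimulation and adhesion did not move as 1 group. Of 8 examined, 5 were tested (Cd40, Icosl, Cd274, Icam1 and Tnfsf9), and with IFN-gamma in control cells 4 were higher and 1 lower by edgeR, where 36.4% and 34.1% of all tested genes were. For the mean of the guides, 2 were higher in vehicle (Icam1 and Cd40), where 34% of all tested genes were. With IFN-gamma 1 was higher and 2 lower, where 32.5% and 33.4% of all tested genes were. By guide with IFN-gamma, Tnfsf9 was called higher with sgRNA1 (0.57 ± 0.15) and not called with sgRNA2 (-0.12 ± 0.16). Cd40, the receptor for CD40 ligand on helper T cells, had 16 and 10 counts in control vehicle cells, 116 and 130 with sgRNA1 and 186 and 198 with sgRNA2. With IFN-gamma it had 46 and 49, 142 and 145, and 229 and 242 counts, a rise of 1.87 ± 0.19 for the mean of the guides (adjusted p = 6.35e-08, edgeR). Cd274, which encodes the inhibitory ligand PD-L1, was at 146 CPM in treated control cells, 52.2 with sgRNA1 and 78.1 with sgRNA2, a log2 fold change of -1.20 ± 0.08 (adjusted p = 2.48e-10, edgeR). Cd40 thus lay above control in both treatments, as H2-Ab1 did, while Cd274 with IFN-gamma lay below it, as Ciita did.

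H2-Oa, the alpha chain of the H2-O heterodimer that restrains H2-DM, had 0 to 7 counts in every library and was not tested.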
